A study of Mus musculus with 12 samples.

Results

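The GIMAP genes (GTPases of the immunity-associated protein family) were followed in resting B (RB) cells of mouse spleen. The members were the 8 genes Gimap1, Gimap3, Gimap4, Gimap5, Gimap6, Gimap7, Gimap8 and Gimap9, found as the non-control spots that carry one of these symbols. They were measured by 10 of the 61307 probes of a custom one-colour mouse array, and all 10 were among the 31599 probes tested. RNA came from CD43-negative splenic B cells of 6 weeks old female BALB/c mice, and every group was cultured for 4 h. There were 6 groups of 2 arrays. One was left unstimulated, and the others received Pam2CSK4 (a synthetic lipopeptide that triggers TLR-2), anti-CD86, anti-CD86 with Pam2CSK4, anti-CD40, or anti-CD40 with Pam2CSK4. CD86 and CD40 are costimulatory receptors of the B cell, here engaged by antibody. No array was labelled as given an isotype control antibody, although the paper's methods for the arrays mention one. The labels do not say whether both arrays of a group came from separate mice, so p-values measure only the spread between these samples.

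GIMAP proteins are small GTP-binding proteins found chiefly in lymphocytes, where several of them bear on survival. Most are anchored to internal membranes, and some have been tied to mitochondria, lysosomes or autophagy. The genes lie side by side in a single cluster. In mice, loss of Gimap1 or Gimap5 removes mature lymphocytes, and Gimap4 is known for its part in the death of T cells.

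In the RefSeq annotation of assembly GRCm38.p6 the 8 members stood on chromosome 6 in the order Gimap8, Gimap9, Gimap4, Gimap6, Gimap7, Gimap1, Gimap5 and Gimap3. Gimap6 and Gimap3 lay on the minus strand and the other 6 on the plus strand. The array was annotated to mm9, so coordinates of probes are not given. Each probe was 60 bases long. The probes of Gimap4, Gimap9 and Gimap7 are printed whole, because Gimap4 had the largest increase, Gimap9 varied with it and Gimap7 had the widest spread.
Gimap4: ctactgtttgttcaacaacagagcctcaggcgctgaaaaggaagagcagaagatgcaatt
Gimap9: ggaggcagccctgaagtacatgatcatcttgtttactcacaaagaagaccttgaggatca
Gimap7: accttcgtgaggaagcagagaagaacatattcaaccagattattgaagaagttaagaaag

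Of Gimap8, which rose with anti-CD40 and Pam2CSK4, and of Gimap1, which fell with anti-CD40, the first 30 bases of the probe are shown. The first 30 bases of both Gimap3 probes follow, with the bases that both probes hold in capitals.
Gimap8: gtcttggactgcctaaacctttgtatttgt
Gimap1: gctcagagctttaatgattcacagtgcagt
Gimap3 first probe: CTGCATTTTATTGTGGATTGGGATCACTCA
Gimap3 second probe: gtttaatgctCTGCATTTTATTGTGGATTG

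Both probes of Gimap8 had the same sequence, so they are 2 spots of 1 measurement and not 2 independent probes. Probes of different members shared at most 9 bases in a row. The brighter probe gave the value of Gimap3 and of Gimap8.

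All 10 probes were well above background on all 12 arrays, and none was saturated. Of the spots of an array, 46.6% to 60.6% were well above background. The highest share was that of anti-CD40 replicate 2. Levels are given as the log2 processed signal minus the 75th percentile of the array, so that a level of 0 is the brightness of the 75th percentile. The arrays lay on 2 slides, each with its own scan run, so slide and scan cannot be told apart. Slide 1 held 8 arrays. It carried unstimulated cells and anti-CD40 with Pam2CSK4 entirely, while the other 4 groups were split, 1 array on each slide. In each of these 4 groups the array on slide 2 was replicate 2. With the slide as a term, 18138 of the 31599 probes differed between the slides. Gimap1, Gimap3, Gimap4, Gimap6 and Gimap9 were lower on slide 2 by limma's test, and Gimap4 fell by 0.43 on the log2 scale (adjusted p = 0.000796). Values with the slide as a block are therefore given beside those without it.

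The 12 B cell markers on the array were all well above background on all 12 arrays. Markers of other cells were present too. Of 20 T cell markers, 19 were above background on every array, and none was below it on all arrays. Their summed level, in multiples of the 75th percentile, was 77.7 to 79.8 in unstimulated cells, 73.8 to 74.2 with anti-CD40 and Pam2CSK4, and 55.2 to 70.7 with anti-CD40. Of 12 myeloid markers, 11 were above background on every array. One of them, S100a9, was saturated on all 12 arrays, and the sum of the other 11 was 313 to 315, 203 to 208 and 172 to 204. The sum of 9 NK cell markers, 8 of them above background on every array, was 21.3 to 21.6, 16.7 to 17.6 and 13.4 to 16.1. Of 9 endothelial markers, 4 were above background on no array, and of 9 red cell and platelet markers, 2 were. In each of the 5 stimulated groups the sums for T, NK and myeloid markers lay below those of unstimulated cells. The sum of the B cell markers was 203 to 205 in unstimulated cells. It was 185 to 216 with Pam2CSK4, 187 to 209 with anti-CD86 and 199 to 231 with anti-CD86 and Pam2CSK4. With anti-CD40 it was 216 to 268, and with anti-CD40 and Pam2CSK4 259 to 269. The sum of red cell and platelet markers was 106 to 107 with anti-CD40 and Pam2CSK4 and 90.1 to 90.2 in unstimulated cells. The B cell sums leave out Cd79b and Blnk, which were saturated on all 12 arrays. T cells also express GIMAP genes, and the part of these cells in the GIMAP signal was not tested. In such bulk RNA, fewer cells of a type and less RNA per cell cannot be told apart.

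**Figure D1:**
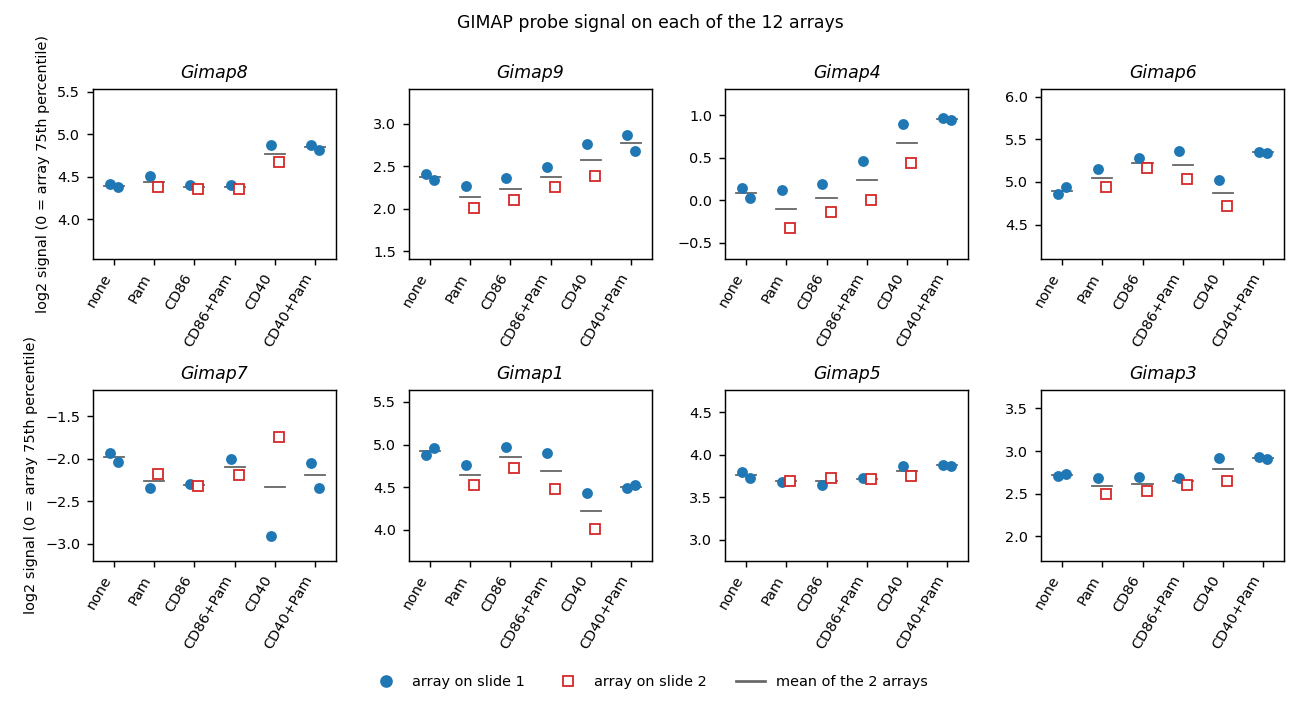
Level of each GIMAP gene (log2 signal, 0 at the 75th percentile of the array) on the 12 arrays, with filled circles for slide 1, open squares for slide 2 and lines for the mean of 2 arrays. The axis spans the same range in every panel; Gimap4 lay at 0.97 and 0.95 with anti-CD40 and Pam2CSK4 and at 0.15 and 0.03 in unstimulated cells.

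The question of the design was whether a costimulatory signal and a TLR-2 signal act together on RB cells. In cells given anti-CD40 with Pam2CSK4, the genes Gimap4 and Gimap8 rose against unstimulated cells. No member fell past the threshold. The arrays of both groups did not overlap for 8 of the 8 members, 6 of them higher and 2 lower, and for 76% of all probes. Of all probes tested, 18.1% were called in this comparison (limma, Benjamini-Hochberg adjusted p below 0.05), and 2 of the 8 members were. Both were higher, as were 8.46% of all probes. The median log2 fold change was 0.30 over the members and 0.0085 over all probes.

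Gimap4 showed the largest increase. Its level was 0.15 and 0.03 in unstimulated cells and 0.97 and 0.95 with both signals. The groups lay apart by far more than either pair of arrays differed. Both pairs lay on slide 1, so the spread between slides is not in this comparison. The log2 fold change was 0.87 (SE 0.24, limma adjusted p = 0.0383), which is 1.83-fold.

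Gimap8, whose protein carries several GTP-binding domains in tandem, rose less. Its level was 4.41 and 4.38 in unstimulated cells and 4.88 and 4.82 with both signals. The log2 fold change was 0.45 (SE 0.11, limma adjusted p = 0.0266). The other Gimap8 spot, of the same sequence, lay at 4.29 and 4.37 and at 4.85 and 4.79 in these groups.

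Gimap6, a partner of the autophagy protein Gabarapl2, and Gimap9 had higher levels that missed the threshold. The level of Gimap6 was 4.86 and 4.94 in unstimulated cells and 5.35 and 5.34 with both signals, a log2 fold change of 0.45 (SE 0.16, limma adjusted p = 0.0876). The level of Gimap9 was 2.41 and 2.34 against 2.87 and 2.68, a log2 fold change of 0.40 (SE 0.18, limma adjusted p = 0.153). Gimap3, found on the mitochondrial outer membrane, was at 2.71 and 2.74 against 2.93 and 2.91. Its log2 fold change was 0.20 (SE 0.13).

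Gimap1 and Gimap7 lay lower. Gimap1, needed for mature B and T cells, was at 4.87 and 4.97 in unstimulated cells and at 4.49 and 4.52 with both signals, a log2 fold change of -0.41 (SE 0.20, limma adjusted p = 0.178). Gimap7 was the member with the widest spread, at -1.93 and -2.04 against -2.05 and -2.35. Gimap5, which keeps resting lymphocytes alive, had the smallest difference, 0.11 (SE 0.10).

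All 4 arrays of this comparison lay on slide 1, so a slide block leaves each fold change as it is and changes only the error. With the block, 6 of 8 members were called, Gimap3, Gimap4, Gimap6, Gimap8 and Gimap9 higher and Gimap1 lower, beside 47.5% of all probes. The share of probes called thus rose along with that of the members. When any 1 of the 4 arrays was left out, the count without the block was 0, with an adjusted p of 0.134 to 0.18 for Gimap4 and 0.114 to 0.157 for Gimap8.

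**Figure D2:**
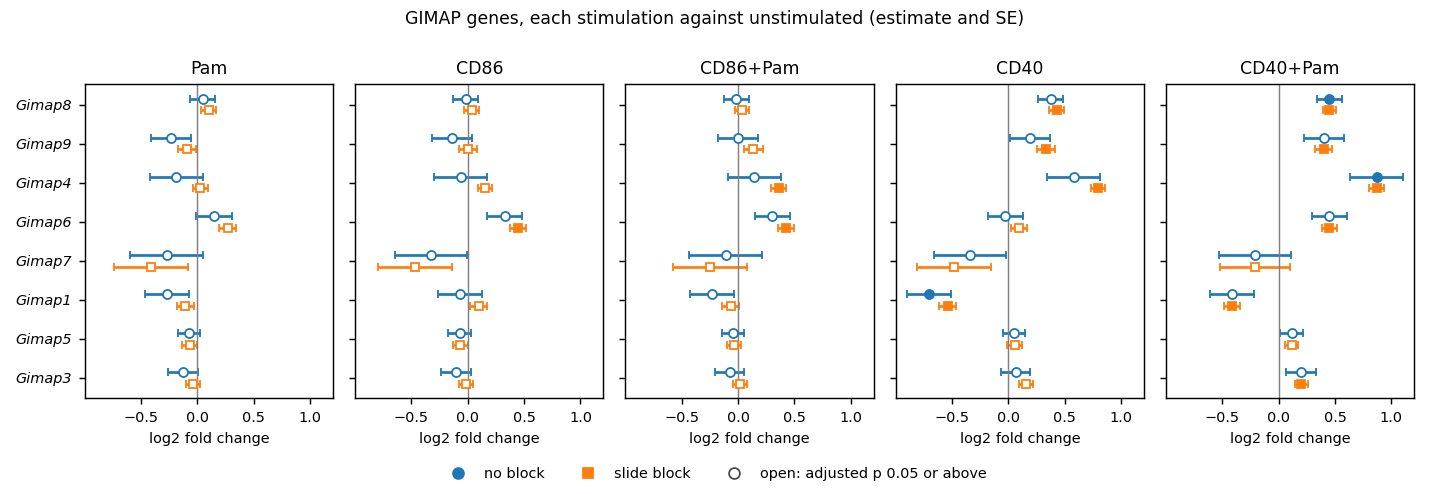
Log2 fold change with its SE for each GIMAP gene in 5 stimulations against unstimulated cells, as circles without and squares with the slide as a block; filled symbols had a limma adjusted p below 0.05. Without the block Gimap1 is filled under anti-CD40 and Gimap4 and Gimap8 are filled under anti-CD40 with Pam2CSK4.

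Under anti-CD40 alone, 1 of 8 members was called, beside 16.8% of all probes. This was Gimap1, which fell, as did 10.7% of all probes. Its level was 4.43 and 4.00 with anti-CD40 and 4.87 and 4.97 without. The groups did not overlap for 3 of 8 members, Gimap1 among them, and the share of all probes was not counted. The log2 fold change was -0.70 (SE 0.20, limma adjusted p = 0.0448), or -0.54 with the slide block (adjusted p = 0.0025). The call was lost without either unstimulated array or without anti-CD40 replicate 2 (adjusted p 0.161 to 0.213). Without anti-CD40 replicate 1 the log2 fold change was -0.91. That fit set anti-CD40 on slide 2 against unstimulated cells on slide 1, so slide and treatment could not be told apart. Gimap1 was lower on slide 2 by 0.33. Replicate 2 of anti-CD40 was also the array with the highest median intensity, 51.3, where the other arrays had 17.3 to 33.5. Its group had the largest median absolute difference between arrays, 0.330. Whether the brightness of this array bore on the call was not tested.

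Gimap8 and Gimap4 had higher levels on both anti-CD40 arrays than on the unstimulated arrays. Gimap8 was at 4.87 and 4.67, a log2 fold change of 0.38 (SE 0.11, limma adjusted p = 0.0526). This lay at the threshold, since an array percentile taken over all spots moved limma's adjusted p of Gimap8 to 0.0496. Gimap4 was at 0.90 and 0.44, a log2 fold change of 0.58 (SE 0.24, limma adjusted p = 0.127). Under median scaling the log2 fold change of Gimap8 was -0.19, where the median of all probes also stood at -0.58.

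The lower value of Gimap4 and of Gimap8 was that of the array on slide 2. Fitted with the slide block, 4 of 8 members were called, beside 37.4% of all probes. Gimap4 rose by 0.80 (adjusted p = 0.000435), Gimap8 by 0.43 and Gimap9 by 0.33, and Gimap1 fell. Gimap7 differed most between its anti-CD40 arrays, at -2.91 on slide 1 and -1.74 on slide 2, and the arrays of the other groups lay between these values.

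Neither Pam2CSK4 nor anti-CD86 alone gave a call. In the limma test of Pam2CSK4 against unstimulated cells 0 of 8 members were called, beside 0.133% of all probes called. At an unadjusted p below 0.05 there were also 0 members. The log2 fold changes ran from -0.27 to 0.15, and the slide block also gave 0 calls, beside 10.9% of all probes. In the limma test of anti-CD86 the members' counts at an adjusted and an unadjusted p were 0 and 0 too. Of all probes 2.07% were called, and the log2 fold changes of the members ran from -0.33 to 0.33.

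With anti-CD86 alone, Gimap6 did not pass the test. Its level was 5.28 and 5.17 with anti-CD86 and 4.86 and 4.94 in unstimulated cells. Gimap6 was 1 of 3 members without overlap here, and the share of all probes without overlap was not counted. The log2 fold change was 0.33 (SE 0.16, limma adjusted p = 0.258). Under the slide block it was 0.45 (adjusted p = 0.00693), and Gimap6 was the only 1 of 8 members called, beside 28.5% of all probes.

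With anti-CD86 and Pam2CSK4 together, 0 of 8 members were called by limma, beside 10.7% of all probes called. Again 0 members had an unadjusted p below 0.05. Gimap6 was at 5.36 and 5.04 and Gimap4 at 0.46 and 0.00. The slide block gave 2 calls beside 35.1% of all probes, which were Gimap6 with 0.42 (adjusted p = 0.00613) and Gimap4 with 0.36 (adjusted p = 0.0078). The missing calls do not show that the members kept their level. For Gimap4 without the block, the 95% interval of the log2 fold change was 0.14 ± 0.54.

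The next comparisons set both signals against a single one. Against Pam2CSK4 alone, anti-CD40 with Pam2CSK4 gave 1 call of 8, beside 9.81% of all probes. This member rose, as did 6.57% of all probes. It was Gimap4, at 0.97 and 0.95 against 0.13 and -0.32, with a log2 fold change of 1.06 (SE 0.24, limma adjusted p = 0.0293). The slide block gave a log2 fold change of 0.84 (adjusted p = 0.000378). Without Pam2CSK4 replicate 2 or either array of anti-CD40 with Pam2CSK4 the call was lost. Without Pam2CSK4 replicate 1 the log2 fold change was 1.28. That fit set Pam2CSK4 on slide 2 against both signals on slide 1, so slide and treatment could not be told apart.

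In that comparison the slide block gave 5 calls, beside 31.6% of all probes. Gimap9, at 2.87 and 2.68 against 2.27 and 2.01, had a log2 fold change of 0.63 without the block (adjusted p = 0.0623). Gimap8 had one of 0.40 (adjusted p = 0.06). The groups did not overlap for 7 of the 8 members, Gimap8 and Gimap9 among them. The share of all probes without overlap was not counted for this comparison.

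Against anti-CD40 alone, 0 of 8 members were called by limma, beside 2.89% of all probes called. At an unadjusted limma p below 0.05 there was 1 member, and no share of all probes is given at that level. That member was Gimap6, at 5.35 and 5.34 against 5.02 and 4.72, with a log2 fold change of 0.48 (SE 0.16, limma adjusted p = 0.174). With the slide block it was 0.36 (adjusted p = 0.0231), the only member called, beside 15.3% of all probes. Anti-CD86 with Pam2CSK4 gave 0 calls of 8 against Pam2CSK4, beside 0.0633% of all probes, and 0 against anti-CD86, beside 0.225%, both with 0 at an unadjusted p below 0.05 in limma. The slide block gave 1 call against Pam2CSK4, Gimap4 (log2 fold change 0.33, adjusted p = 0.0254), beside 11.1% of all probes, and 0 against anti-CD86, beside 7.78%.

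The interaction asks whether the effect of both signals differed from the sum of the single effects on the log2 scale. No member was called for CD40 and Pam2CSK4, beside 1.15% of all probes, or for CD86 and Pam2CSK4, beside 0.019%, with 0 at an unadjusted p below 0.05 in limma in both. For CD40 the estimates ran from 0.025 for Gimap8 to 0.56 for Gimap1 (SE 0.28), and the median of all probes was 0.16. With the slide block the estimate of Gimap1 was 0.23, and again no member was called, beside 8.55% of all probes for CD40 and 0.228% for CD86. The intervals were wide, with a 95% interval of 0.48 ± 0.77 for Gimap4 without the block.

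**Figure D3:**
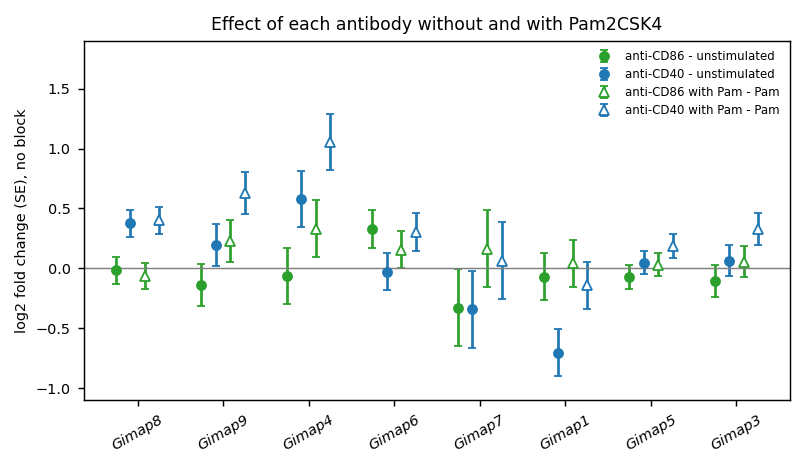
Log2 fold change with its SE, without a slide block, of anti-CD86 (green) and anti-CD40 (blue) for each GIMAP gene, as filled circles against unstimulated cells and open triangles in the presence of Pam2CSK4. Gimap8 lies at 0.38 and 0.40 with anti-CD40 and at -0.016 and -0.064 with anti-CD86.

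Both antibodies were also compared directly, with comparisons added after the data had been seen. With Pam2CSK4 in both groups, Gimap8 was higher with anti-CD40 than with anti-CD86, at 4.88 and 4.82 against 4.40 and 4.36. The log2 fold change was 0.47 (SE 0.11, limma adjusted p = 0.0315), and this was the only 1 of 8 members called, beside 12.2% of all probes. As a share of all probes, 7.4% were called higher. The call was lost when any 1 of the 4 arrays was left out (adjusted p 0.0844 to 0.179). Under the slide block 4 members were called, Gimap4, Gimap8 and Gimap9 higher and Gimap1 lower, beside 34.6% of all probes.

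Without Pam2CSK4, 0 of 8 members were called between anti-CD40 and anti-CD86 by limma, beside 10% of all probes called. The 3 members Gimap1, Gimap4 and Gimap8 had an unadjusted limma p below 0.05, and no share of all probes is given at that level. Gimap1 was at 4.43 and 4.00 against 4.98 and 4.73, a log2 fold change of -0.64 (adjusted p = 0.0835). In both pairs of arrays on the same slide Gimap1 was lower with anti-CD40, by -0.55 on slide 1 and -0.72 on slide 2. The slide block, which leaves these estimates unchanged, gave 5 calls beside 34.9% of all probes, with Gimap4, Gimap8 and Gimap9 higher and Gimap1 and Gimap6 lower with anti-CD40.

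Over all 6 groups, limma's F-test called only Gimap8 (adjusted p = 0.0399), beside 20.1% of all probes. Gimap4 followed with an adjusted p of 0.0569. Gimap7, with 0.895, stood last.

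The order of the groups differed between members. For Gimap4 the order was anti-CD40 with Pam2CSK4, anti-CD40, anti-CD86 with Pam2CSK4, unstimulated, anti-CD86 and Pam2CSK4, and the lower 5 groups each overlapped with their neighbour. For Gimap8 both anti-CD40 groups overlapped with each other and lay above the other 4, which overlapped among themselves. For Gimap6, anti-CD40 with Pam2CSK4 and both anti-CD86 groups came first, and anti-CD40 alone, at 5.02 and 4.72, overlapped with unstimulated cells. Gimap1 ran the other way, with unstimulated cells highest and anti-CD40 lowest, and anti-CD40 alone lay below every array of the other groups.

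Across the 12 arrays, which share 6 treatments and 2 slides, the levels of Gimap4 and Gimap9 had a Pearson correlation of 0.97, as a description. Gimap3 and Gimap9 had one of 0.96, and Gimap4 and Gimap8 one of 0.91. Gimap1 ran against Gimap8, with -0.57 over 12 arrays and -0.99 over the 8 arrays of slide 1. Gimap3, Gimap4, Gimap5, Gimap8 and Gimap9 thus varied together, and Gimap1, Gimap6 and Gimap7 did not follow them. Of 10188 other genes with a symbol, those whose levels were most like the mean of the 8 members were Med4 (0.97 over 12 arrays, 0.96 on slide 1), Usp36, Ube2o, AI413782 and D10Wsu102e (0.95 to 0.97 over 12 arrays).

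The RefSeq promoter table (GRCm38.p6) held 9 promoters for the 8 members, 2 of them for Gimap8. Promoters of Gimap4 and Gimap8, which rose, and of Gimap1, which fell under anti-CD40, are shown from 250 bases before the start, on the strand of the gene, with matches to TGTGGT (RUNX, either strand) in capitals.
Gimap4, chr6:48684328-48684577, plus strand: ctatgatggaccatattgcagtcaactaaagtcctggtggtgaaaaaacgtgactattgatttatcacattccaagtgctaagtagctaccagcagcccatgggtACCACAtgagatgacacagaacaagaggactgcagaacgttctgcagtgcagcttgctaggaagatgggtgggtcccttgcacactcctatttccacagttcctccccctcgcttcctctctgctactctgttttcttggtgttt
Gimap8, chr6:48647111-48647360, plus strand: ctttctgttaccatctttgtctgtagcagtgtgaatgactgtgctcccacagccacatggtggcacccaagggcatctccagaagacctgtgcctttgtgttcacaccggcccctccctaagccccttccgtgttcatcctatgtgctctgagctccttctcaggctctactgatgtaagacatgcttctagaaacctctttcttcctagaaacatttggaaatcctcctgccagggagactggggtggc
Gimap1, chr6:48738797-48739046, plus strand: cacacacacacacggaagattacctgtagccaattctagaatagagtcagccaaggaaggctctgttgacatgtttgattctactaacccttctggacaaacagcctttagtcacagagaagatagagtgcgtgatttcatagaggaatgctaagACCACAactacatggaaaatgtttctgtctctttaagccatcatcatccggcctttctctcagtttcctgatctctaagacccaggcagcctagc

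The search covered 250 bases before and 50 after the start, on both strands. TGTGGT was found in 3 of the 9 member promoters, those of Gimap1, Gimap4 and Gimap7, and in 16.8% of all 32851 promoters. GTAAACA (FOXO) was found in 1, that of Gimap3, and in 3.65% of all. GTGGGAA (RBPJ) was found in 1, also that of Gimap3, and in 6.38% of all. The kappa B consensus of p50 and RelA was in 0 of 9 and in 5.80% of all, which says only that these letters were not in these windows.

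Genes tied to the GIMAP proteins were described beside the members. Of 12 partner proteins of the BCL2 and GABARAP families and related genes, 3 rose and 1 fell with anti-CD40 and Pam2CSK4, and 2 rose with anti-CD40. The anti-apoptotic gene Bcl2l1 had a log2 fold change of 4.72 (SE 0.13) and 3.85 in these comparisons. The pro-apoptotic genes Bid and Bcl2l11 rose by 0.93 and 0.70 with both signals. Gabarapl2, the partner of Gimap6, fell by 0.68, and it is named after its value was seen as the only gene of the list that fell. The median of the list was -0.14 against 0.0085 over all probes.

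Of 13 regulators of lymphocyte quiescence, 6 fell and 0 rose with both signals, and 7 fell with anti-CD40 alone. S1pr1, the receptor that lets lymphocytes leave tissue, fell by 1.66, and the antiproliferative gene Btg2 fell by 0.98. Klf2 and Btg1 of this list were saturated on all 12 arrays, so their levels had only a bound. The median of the list was -0.49, or -0.53 without them, where that of the GIMAP genes was 0.30. Of 15 early activation genes, 7 rose and 2 fell in each of these comparisons, among them the adhesion molecule Icam1 (log2 fold change 2.84 with both signals) and Myc (2.29). Cd83 and Nfkbia were saturated on all 12 arrays, in unstimulated cells too, and could not be seen to rise. Nfkb1 and Bcl2a1a, which rose, were saturated on 3 and 2 arrays. Of 15 other immune GTPases, of which Tgtp1 and Tgtp2 share an array symbol, 2 rose and 2 fell with both signals. Gbp5 rose by 0.73 and Irgm1 fell by 0.88. Iigp1 fell by 0.97 near the background, since it was above it on 1 of 2 unstimulated arrays and on 0 of 2 with both signals.

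Of the 10 named genes nearest to the cluster on either side, 8 were tested, and 1 fell and none rose with both signals. Rarres2, which encodes the chemoattractant chemerin, fell by 2.11 and was above background on 10 of 12 arrays. The median over these neighbours was -0.096. Among the markers, Cd2 was the only 1 of 20 T cell markers called with both signals (log2 fold change -0.56), and the median of the T cell list was -0.098. Of 11 myeloid markers tested 6 fell, of 9 NK cell markers 1 fell, and of 12 B cell markers 1 rose, the low-affinity IgE receptor Fcer2a (log2 fold change 1.49). Without the slide block no T, NK or myeloid marker was called higher with both signals. Whether these cells had a part in the GIMAP values was not tested. With the block, 4 of the T cell markers rose and 5 fell, and 1 NK marker rose. The 1 myeloid marker called higher with the block was the saturated S100a9.

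**Figure D4:**
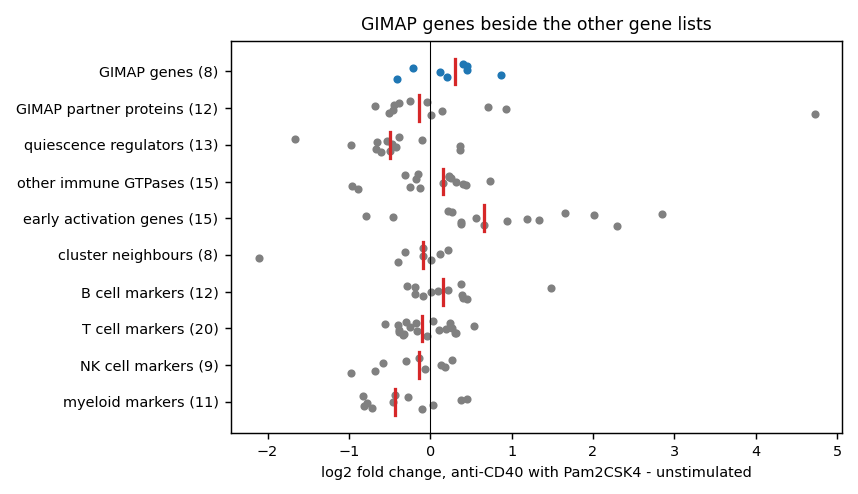
Log2 fold change of anti-CD40 with Pam2CSK4 against unstimulated cells for each tested gene of a list (points, number in brackets) with the list's median (red line). The median of the GIMAP genes was 0.30, that of the quiescence regulators -0.49 and that of the T cell markers -0.098. Probes saturated on all 12 arrays are included, 2 of them among the quiescence regulators.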

How the data were processed

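RNA of RB cells was labelled with Cy3 by the authors and hybridised to 12 one-colour Agilent arrays. In the deposited scan of each array, Feature Extraction gives every spot a processed signal intensity, already corrected for background. A deposited table of log2 values was also available. On each array it differs from the log2 of that intensity by a single constant, and it served as an alternative. Control spots and the outlier spots, 5 to 35 per array, were dropped, and repeated spots were averaged as log2 values. The 75th percentile over all these probes was then subtracted from each array. It was first taken over all spots. The change was made after member results under that definition had been seen, because averaged probes gave the counts of earlier results of these data. A percentile over the probes tested was the third definition tried, and both others are alternatives.

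Probes had to be well above background on each array of some group (31667 probes), and 68 with a missing value were dropped. limma 3.58.1 (R 4.3.3) fitted a coefficient for each of the 6 groups over 12 arrays, with Benjamini-Hochberg adjustment over 31599 probes and a call at an adjusted p below 0.05. The fit was also run on simulated data with planted changes larger than most changes of the members, so that run does not bear on the member calls. Of 13 contrasts, both direct comparisons of the antibodies were added after the data were seen. All 8 members are named, with up to 3 called genes of each list and the 5 genes most like the members. Which array names counted as symbols, and which probes are printed whole, were settled after values were seen. The members and lists were chosen with earlier results of these data known. With 2 arrays per group, their number limits the precision. Figures were drawn with Python 3.11.15 and matplotlib 3.10.9.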

Additional observations from a re-analysis of the deposited data

How the results depend on the processing

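The calls rested on small margins. Each limma count of members called stayed at 0 for both interactions in all alternatives run. No member changed direction in anti-CD40 with Pam2CSK4 against unstimulated cells under any alternative, but its 2 calls became 0 under median scaling, with no filter on dim probes and with a 2-fold minimum, and the same 3 settings gave 0 in place of 1 for anti-CD40 and for anti-CD40 with Pam2CSK4 against anti-CD86 with Pam2CSK4. The first pair of these also gave 0 for anti-CD40 with Pam2CSK4 against Pam2CSK4 and 0 in the F-test. Leaving out 1 array at a time gave 0 calls for anti-CD40 with Pam2CSK4, set against either unstimulated cells or anti-CD86 with Pam2CSK4, 0 to 1 for anti-CD40, for anti-CD40 with Pam2CSK4 against Pam2CSK4 and for anti-CD40 against anti-CD86, and 0 to 2 in the F-test. An arm left with 1 array was assumed to vary like the others. The causes were not tested.

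Other settings gave more calls. Quantile normalization gave 1 for anti-CD86, 1 for anti-CD86 with Pam2CSK4, 2 for anti-CD40, 4 for anti-CD40 with Pam2CSK4, 3 for the latter against Pam2CSK4, 3 for anti-CD40 against anti-CD86 and 5 in the F-test. The slide block gave 1, 2, 4 and 6 for these 4 stimulations, 5 against Pam2CSK4, 1 for anti-CD86 with Pam2CSK4 against Pam2CSK4, 1 for both signals against anti-CD40, 5 and 4 for the antibodies without and with Pam2CSK4, and 6 in the F-test. Slide 1 alone gave 1 for anti-CD86 with Pam2CSK4, 4 for anti-CD40, 5 for anti-CD40 with Pam2CSK4, 1 and 3 for the antibodies and 4 in the F-test. Requiring signal on all 12 arrays gave 2 for anti-CD40, 3 against Pam2CSK4, 1 for anti-CD40 against anti-CD86 and 2 in the F-test. Normexp gave 2 against Pam2CSK4, 1 for anti-CD40 against anti-CD86 and 2 in the F-test. Only the groups compared gave 0 for anti-CD40, 5 for anti-CD40 with Pam2CSK4, 0 against Pam2CSK4 and 0 against anti-CD86 with Pam2CSK4.

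The 3 definitions of the 75th percentile, of which 2 were added after seeing the data, gave different counts. For the 5 stimulations in the order Pam2CSK4, anti-CD86, both, anti-CD40 and anti-CD40 with Pam2CSK4, members called were 0, 0, 0, 1 and 2 over averaged probes, 0, 0, 0, 2 and 2 over all spots, and 0, 1, 1, 3 and 6 over the probes tested. All probes called were 42, 654, 3366, 5307 and 5721, then 46, 686, 3409, 5324 and 5763, then 668, 4739, 6638, 8460 and 10317. The last definition also gave 4 against Pam2CSK4, 1 for both signals against anti-CD40, 4 and 2 for the antibodies and 5 in the F-test. The one way test that the methods name called 1 member after Benjamini-Hochberg adjustment, Gimap8 (adjusted p = 0.0193), beside 5721 probes, and 11134 probes at an unadjusted p below 0.05.

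Same-numbered arrays deviated together with a correlation of -0.107 to 0.674. Between the 4 groups split over both slides, where number and slide coincide, it was 0.538 to 0.674. In pairs with unstimulated cells or anti-CD40 with Pam2CSK4 it was -0.107 to 0.0666. The numbers are therefore not taken to pair the samples. The replicate block gave 3 for anti-CD40, 4 for anti-CD40 with Pam2CSK4, 3 against Pam2CSK4, 3 and 3 for the antibodies and 3 in the F-test.

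Values that turned sign did so between levels called in neither setting. Median scaling moved the median of all probes by -0.26, -0.19, -0.32, -0.58 and -0.10 in the 5 stimulations. Under median scaling Gimap6 was -0.048 and Gimap8 -0.15 with Pam2CSK4, Gimap4 -0.14 with anti-CD86 and Pam2CSK4, Gimap3 -0.50, Gimap5 -0.52, Gimap8 -0.19 and Gimap9 -0.37 with anti-CD40, and Gimap8 -0.031 for anti-CD40 against anti-CD86. Under the slide block Gimap4 was 0.027 with Pam2CSK4, Gimap1 0.098, Gimap4 0.15, Gimap8 0.034 and Gimap9 0.0013 with anti-CD86, Gimap3 0.013, Gimap8 0.035 and Gimap9 0.14 with anti-CD86 and Pam2CSK4, and Gimap6 0.093 with anti-CD40. On slide 1 alone Gimap4 was 0.037 with Pam2CSK4, Gimap1 0.057, Gimap4 0.11 and Gimap8 0.0044 with anti-CD86, Gimap8 0.0028 and Gimap9 0.11 with anti-CD86 and Pam2CSK4, and Gimap6 0.13 with anti-CD40. After quantile normalization Gimap5 was 0.020 with Pam2CSK4, Gimap1 0.12, Gimap5 0.060 and Gimap8 0.13 with anti-CD86, Gimap3 0.055, Gimap5 0.11, Gimap8 0.14 and Gimap9 0.12 with anti-CD86 and Pam2CSK4, and Gimap6 0.13 with anti-CD40. With the percentile over the probes tested Gimap5 was 0.020 with Pam2CSK4, Gimap1 0.021, Gimap4 0.027, Gimap5 0.016 and Gimap8 0.073 with anti-CD86, Gimap3 0.059, Gimap5 0.091, Gimap7 0.022, Gimap8 0.12 and Gimap9 0.13 with anti-CD86 and Pam2CSK4, Gimap6 0.096 with anti-CD40, and Gimap7 -0.010 for both CD40 and TLR-2 signals against Pam2CSK4. With the median over probes of a gene Gimap8 was 0.0062 with anti-CD86 and Pam2CSK4. After normexp correction Gimap9 was 0.046 with anti-CD86 and Pam2CSK4. Without 1 array at a time, with Pam2CSK4, Gimap4 ran from -0.41 to 0.037 and Gimap8 ran from -0.016 to 0.11. Without 1 array at a time, with anti-CD86, Gimap1 ran from -0.19 to 0.057, Gimap4 ran from -0.23 to 0.11 and Gimap8 ran from -0.037 to 0.0044. Without 1 array at a time, with anti-CD86 and Pam2CSK4, Gimap4 ran from -0.087 to 0.38, Gimap8 ran from -0.035 to 0.0037 and Gimap9 ran from -0.12 to 0.11. Without 1 array at a time, with anti-CD40, Gimap3 ran from -0.070 to 0.20, Gimap5 ran from -0.0096 to 0.11, Gimap6 ran from -0.18 to 0.13 and Gimap7 ran from -0.93 to 0.24. Without 1 array at a time, for both CD40 and TLR-2 signals against Pam2CSK4, Gimap7 ran from -0.087 to 0.21.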
